A study of Mus musculus with 384 samples.

Results

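Oxidative phosphorylation subunits are the proteins that make up respiratory complexes I to IV and the ATP synthase, complex V. They were described here through the liver mRNA of their nuclear genes. Members were the protein-coding genes whose symbols begin with Ndufa, Ndufb, Ndufc, Ndufs or Ndufv (assembly factors named Ndufaf left out), Sdha to Sdhd, Uqcr, Cyc1, Cox4 to Cox8 or Atp5. The gene annotation, GENCODE M21, held 87 such genes, and 84 of them had a row among the 21454 genes of the deposited table. The other 3 (Cox7b2, Cox8c and a further ID for Atp5o) were not analysed here. Complex I had 36 members, complex II 4, complex III 9, complex IV 18 and complex V 17. Ndufa4, Ndufa4l2 and Cox7a2l were placed with complex IV, where their proteins are now assigned or to which they bind, and Atp5s was placed with complex V by its name. A filter on low values kept 81 members. The 3 it removed were Cox4i2, Cox6a2 and Cox8b, all of complex IV.

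Complexes I and II pass electrons from NADH and succinate to coenzyme Q. Complex III hands them on to cytochrome c and complex IV to oxygen, and the protons pumped on the way drive complex V to make ATP. Liver depends on this chain for the ATP that gluconeogenesis, urea synthesis and lipid export consume, and it receives the electrons released by fatty acid oxidation. All but complex II also contain subunits encoded by mitochondrial DNA, but none of those 13 genes (0 of 13) had a row in the table, so everything below concerns the nuclear side. For several subunits the genome holds paralogs with different tissue ranges, such as Cox7a1 in heart and muscle against Cox7a2 in most tissues.

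The mice were wild-type Diversity Outbred animals, a stock bred from several inbred founder strains, so that no animal shares its whole genome with another. All 192 were 26 weeks old and had eaten either chow with 6% fat or a high fat diet with 22% fat by weight from weaning on. F and M, the first letter of each mouse's name, matched the sex given in the labels. The groups were 50 F mice on chow (25 of outbreeding generation G11L1 and 25 of G11L2), 48 F mice on high fat (24 and 24), 48 M mice on chow (23 and 25) and 46 M mice on high fat (25 and 21). What L1 and L2 stand for is not explained in the labels. Each liver had been sequenced in 2 technical repeats that shared 1 column, so the mouse was the replicate. Values were normalized by the authors to the upper quartile of each mouse and are called normalized values below.

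Over the whole table the values of a mouse summed to between 152390 and 298815. Pancreas transcripts stood at more than 10 times the median in 13 mice (4 F on chow, 2 F on high fat, 4 M on chow and 3 M on high fat), and 1 F mouse on chow had Xist against its label. The 10 mice least like the others were 1 F on high fat, 5 M on chow and 4 M on high fat. Hepatocyte markers were all present: their summed value ran from 21462 to 45906 in F mice on chow, 19263 to 73474 in F on high fat, 19008 to 41461 in M on chow and 13766 to 45107 in M on high fat. Of those 9 markers, 5 were lower and 0 higher on high fat. The 5 macrophage markers and the 5 lymphocyte markers were all lower in M. Summed macrophage markers had medians of 62.6 and 62.9 in F mice on chow and high fat, and of 39.5 and 43.6 in M. In 10 markers of stellate cells and smooth muscle, 4 were higher and 0 lower on high fat. The part of these shifts in the results below was not tested, and in bulk liver fewer cells of a type and less RNA per cell cannot be told apart.

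Among the members, levels can be compared only per length, and here the unit is the normalized value per kb of merged exon, averaged over all mice. Merging exons over transcripts lowers the level of a gene with long minor transcripts. In complex V, Atp5a1, the alpha subunit, had the highest level of all members at 68.6 per kb, and Atp5s, a coupling factor gene, the lowest of that complex at 0.413. Cox6a1, a small subunit of complex IV, stood at 54.6 per kb, and its muscle paralog Cox6a2 at 0.0246, with a listed value of 0 in 105 of 192 mice. Uqcr11 and Uqcrc1 marked the ends of complex III at 33.1 and 10.7 per kb. Sdhd and Sdhc, the membrane anchors of complex II, were its highest and lowest at 33.5 and 9.10 per kb. Complex I ran from 31.4 per kb for Ndufb9 down to 1.46 for Ndufb2, both accessory subunits of the membrane arm. The paralogs of complex IV with a narrow tissue range were all low, at 0.304 per kb for Cox7a1, 0.238 for Cox6b2, 0.132 for Ndufa4l2, 0.0525 for Cox8b and 0.0295 for Cox4i2.

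**Figure D1:**
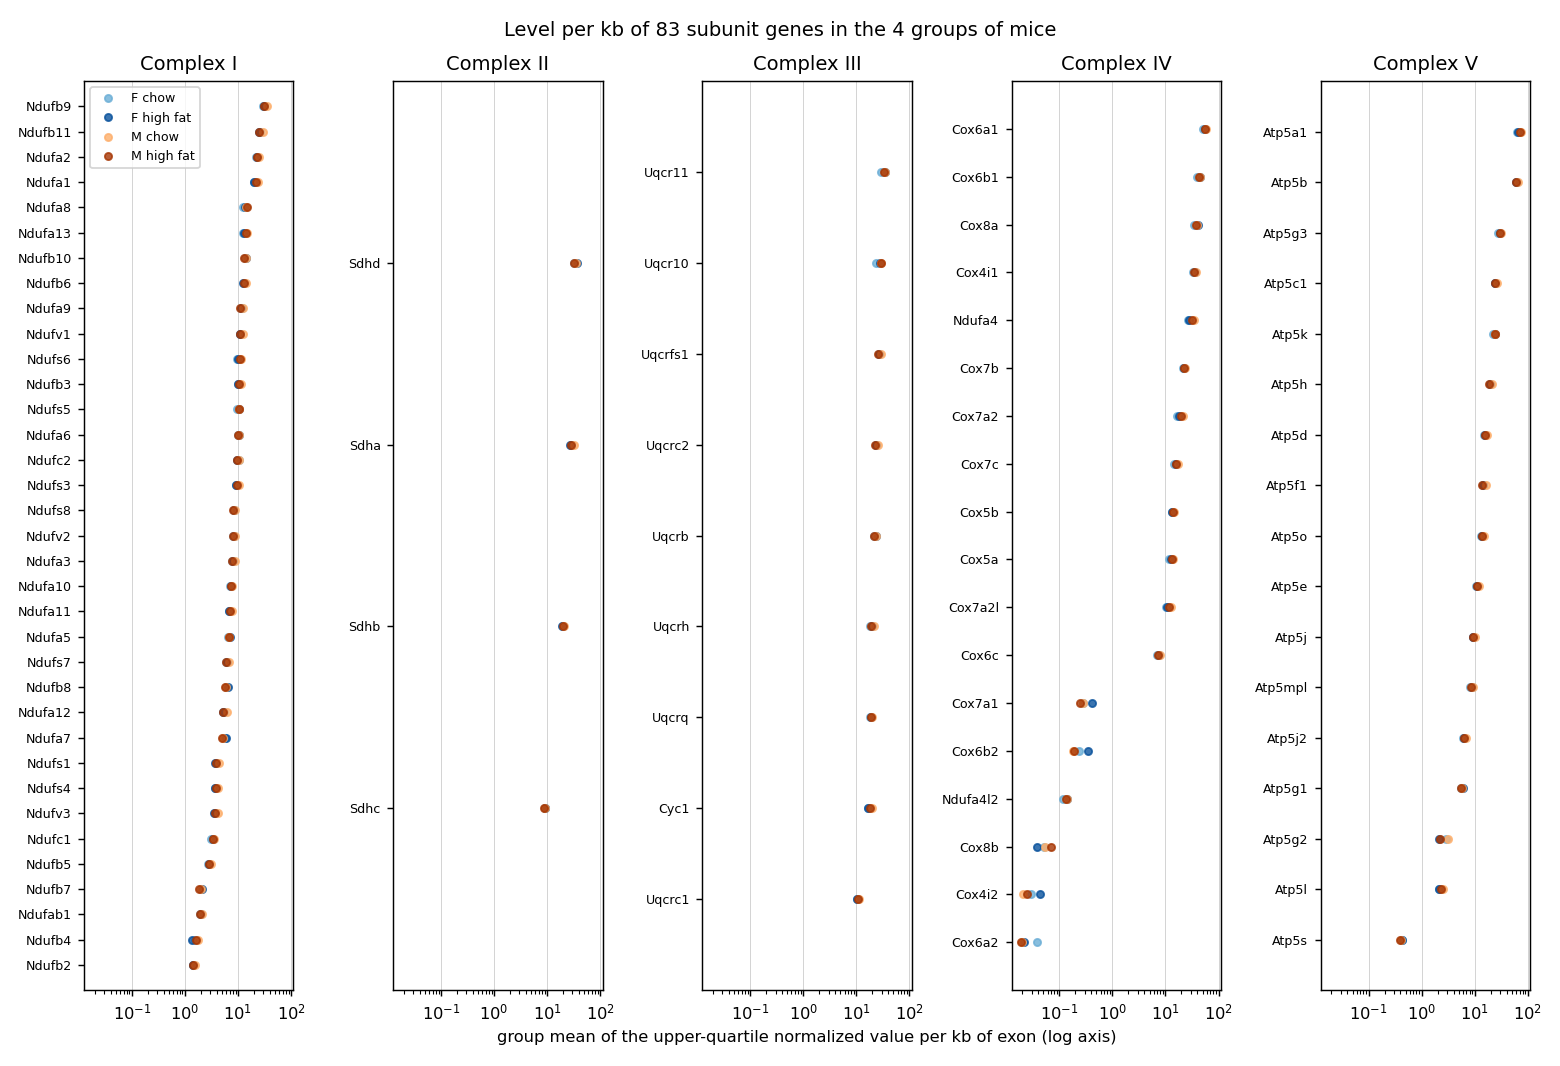
Each row is 1 of 83 subunit genes, each point the mean of 1 of the 4 groups, and the log axis gives the normalized value per kb of exon. The 4 points of a gene nearly coincide beside the span between genes, which reaches from 68.6 for Atp5a1 to 0.0246 for Cox6a2 over all mice.

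Across the 4 groups, M mice on chow had the highest mean level of subunit mRNA in every complex as deposited, but F mice on high fat did once each mouse was rescaled by the median of ratios, a correction for a shift shared by most genes. For each mouse, the log2 values of the members of a complex were centred on their means over all mice and averaged. For complex I the group means ± SD over mice were −0.05 ± 0.13 in F on chow (n = 50), −0.03 ± 0.21 in F on high fat (n = 48), 0.10 ± 0.14 in M on chow (n = 48) and −0.03 ± 0.18 in M on high fat (n = 46). Complex III had −0.07 ± 0.13, −0.01 ± 0.20, 0.10 ± 0.14 and −0.02 ± 0.20 in the same order, and complex II −0.02 ± 0.13, −0.02 ± 0.18, 0.08 ± 0.17 and −0.04 ± 0.18. Complex IV had its lowest mean in F mice on chow, at −0.10 ± 0.15, against 0.04 ± 0.26 in F on high fat, 0.08 ± 0.16 in M on chow and 0.00 ± 0.20 in M on high fat. Complex V without Atp5g2, a gene discussed below whose value was 0 in many mice, had −0.05 ± 0.13, −0.02 ± 0.20, 0.09 ± 0.13 and −0.02 ± 0.19. After rescaling, the means of F mice on high fat and of M mice on chow were 0.04 and 0.00 for complex I, 0.05 and −0.02 for II, 0.06 and 0.00 for III, 0.10 and −0.01 for IV, and 0.05 and −0.01 for V without Atp5g2. The groups overlapped widely in all 5 complexes. Within a mouse, the mean of complex IV minus that of complex I was −0.05 ± 0.12 and 0.06 ± 0.13 in F mice on chow and high fat, and −0.02 ± 0.11 and 0.02 ± 0.11 in M mice. Such differences depend on how a mouse is scaled only through the small constant added before taking logarithms. Complex IV includes Cox6b2, Cox7c, Ndufa4l2 and Cox7a1, whose SDs between mice of a group were large (1.55, 0.51, 0.49 and 0.49). Each counts as much as any other member of complex IV, and their part in its means was not tested. Complex III minus complex I ranged only from −0.02 to 0.02 over the 4 groups.

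**Figure D2:**
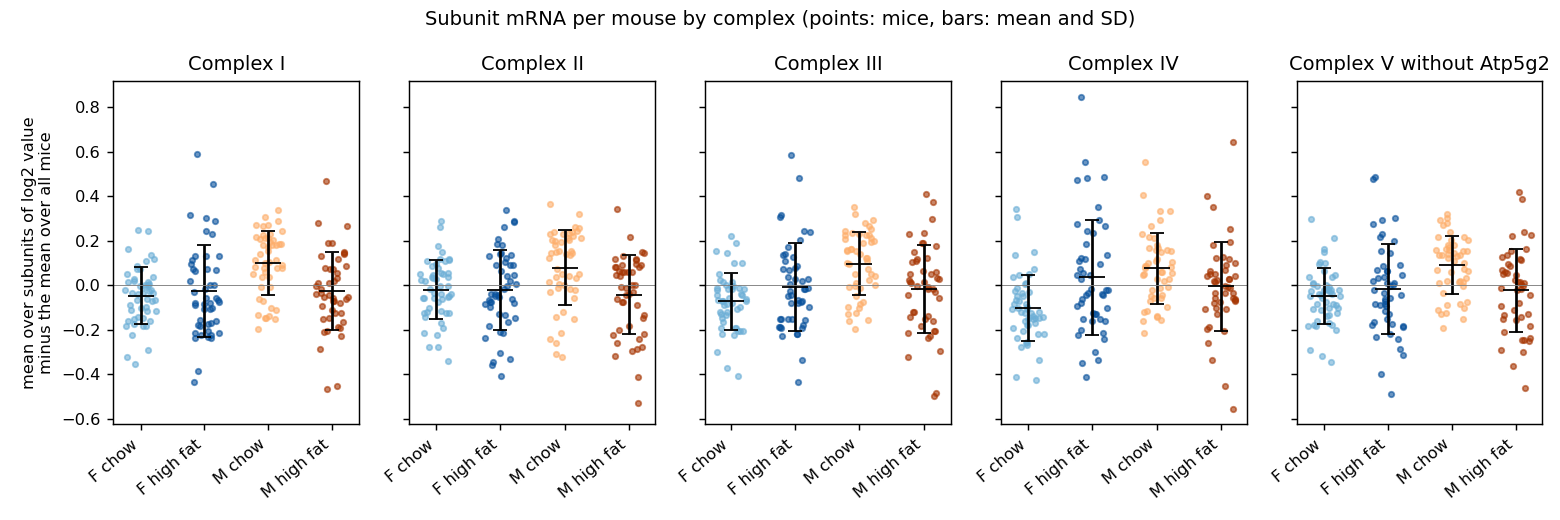
Each point is 1 mouse, the vertical axis is the mean over the tested subunits of a complex of log2 value minus its mean over all mice, and bars give mean and SD. In these deposited values M mice on chow have the highest mean in every panel (0.08 to 0.10) and the groups overlap, while after rescaling F mice on high fat have the highest mean (0.04 to 0.10).

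Between M and F mice, 46 of 81 members were higher in M and 5 lower when both diets were averaged (limma with Benjamini-Hochberg adjustment over the 14602 genes tested, called at adjusted p below 0.05), which is 56.8% and 6.17% of the members. Of all genes tested, 45% were called higher and 23.5% lower. The median log2 difference was 0.08 for the members and 0.07 for all genes. The members thus stood close to the table by median, while a larger share of them was called higher and a smaller share lower. Rescaling moved the median of all genes to −0.01 and turned the balance of the members to 12 higher and 18 lower, against 30.4% and 33.5% of all genes. The size factors used averaged 0.99 in F on chow, 0.96 in F on high fat, 1.08 in M on chow and 1.00 in M on high fat. In G11L1 mice alone 53 members (65.4%, against 39% of all genes) were called higher in M, and in G11L2 mice alone 11 (13.6%, against 36.4%), so the members lay above the share of all genes in one label and below it in the other. Without the 13 mice with pancreas transcripts 41 were higher, and without the 10 least alike mice 56. By complex, the members higher and lower in M were 22 and 3 for I, 2 and 0 for II, 4 and 0 for III, 7 and 1 for IV and 11 and 1 for V as deposited, and 3 and 9, 1 and 2, 2 and 3, 4 and 1, and 2 and 3 after rescaling.

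Most members higher in M were called on chow. There, 61 members were higher and 1 lower in M (75.3% and 1.23%), beside 44.1% and 19.1% of all genes, with medians of 0.16 and 0.10. On high fat 7 were higher and 9 lower (8.64% and 11.1%), beside 31.5% and 18.3% of all genes, with medians of 0.00 and 0.04, and without the 10 least alike mice 16 were higher and 6 lower. After rescaling the counts were 20 higher and 5 lower on chow, against 26.1% and 29.5% of all genes, and 2 higher and 28 lower on high fat, against 23.3% and 25.1%. Within G11L1 and G11L2 mice, 63 and 20 members were called higher in M on chow (77.8% and 24.7%, against 36.7% and 33.7% of all genes), and 5 and 6 lower on high fat (6.17% and 7.41%, against 11.9% and 12.1%). Complex IV had 11 of 15 tested members higher in M on chow, complex V 14 of 17, complex I 28 of 36, complex III 6 of 9 and complex II 2 of 4.

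Averaged over both sexes, 24 members were lower and 2 higher on high fat (29.6% and 2.47%), beside 41.9% and 15% of all genes. The medians were −0.03 for the members and −0.07 for all genes, so a smaller share of the members than of the table fell. After rescaling the direction turned, with 26 higher and 4 lower (32.1% and 4.94%) against 24.9% and 22.9% of all genes. Within G11L1 and G11L2 alone, 10 and 18 members were called lower (12.3% and 22.2%, against 30% and 32.8% of all genes). Without the mice with pancreas transcripts 23 were lower, and without the least alike mice 28. Complex I supplied 15 of the 24 lower members, complexes III and V 4 each, complex II 1 and complex IV 0. None of the 15 tested members of complex IV was called higher as deposited, but 8 were after rescaling, with 0 lower. The rescaled counts higher and lower were 10 and 2 for complex I, 1 and 1 for II, 2 and 0 for III and 5 and 1 for V.

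Taken within each sex, the diet differences were unlike. In F mice, 14 members were higher and 2 lower on high fat (17.3% and 2.47%), beside 10% and 23.3% of all genes, with a median of 0.04 against −0.04. In M mice 0 members were higher and 47 lower (58%), beside 11.4% and 39.8% of all genes, with a median of −0.12 against −0.10. Rescaling gave 37 higher and 0 lower in F, against 15% and 14.7% of all genes, and 2 higher and 8 lower in M, against 19.4% and 16.8%. Calls within G11L1 and G11L2 were 11 and 3 higher in F (13.6% and 3.7%, against 4.87% and 4.79% of all genes), and 29 and 25 lower in M (35.8% and 30.9%, against 27.4% and 26.7%). Without the mice with pancreas transcripts 16 were higher in F and 49 lower in M, and without the least alike mice 11 and 46. In M mice on high fat 7 of 9 hepatocyte markers were also lower, while 3 of 5 macrophage and 5 of 10 stellate markers were higher. In F mice 4 of the 9 hepatocyte markers were lower, 1 macrophage marker was higher and 1 lower, and 4 stellate markers were higher. The part of these shifts in the members' counts was not tested. In F, complex IV had 6 of its 15 tested members higher, and its median of 0.11 was the largest of the 5 complexes. In M, 26 of 36 members of complex I were lower, 3 of 4 of complex II, 5 of 9 of complex III, 5 of 15 of complex IV and 8 of 17 of complex V.

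The difference between the diet responses of M and F, the interaction, was below 0 for 79 of 81 members. It was called for 33 members, all of them lower (40.7%), and for 0 members higher, while 6.92% of all genes were called lower and 1.46% higher. The median interaction was −0.16 for the members and −0.05 for all genes. With median-of-ratios rescaling 11 members were called, all below 0 and all among the 33 (13.6%, against 2.1% of all genes lower and 2.13% higher), 75 of 81 lay below 0, and the medians were −0.10 for the members and 0.01 for all genes. By complex the calls were 12 of 36 for I, 1 of 4 for II, 6 of 9 for III, 8 of 15 for IV and 6 of 17 for V, and 2, 1, 3, 4 and 1 after rescaling. Fitted in G11L1 mice alone, 12 members were called lower (3.1% of all genes) and 78 of 81 lay below 0. In G11L2 mice alone 0 were called, with 21 at an unadjusted p below 0.05, 69 of 81 below 0 and 0.212% of all genes called lower. The members' median was −0.20 in G11L1 and −0.13 in G11L2. Without the mice with pancreas transcripts 37 members were called, including all 33, without the 10 least alike mice 28, of which 27 were among the 33, and without the mouse with Xist against its label 33. Of the hepatocyte markers, 2 of 9 were also called lower in the interaction, while the macrophage, lymphocyte and stellate lists had 0 calls.

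**Figure D3:**
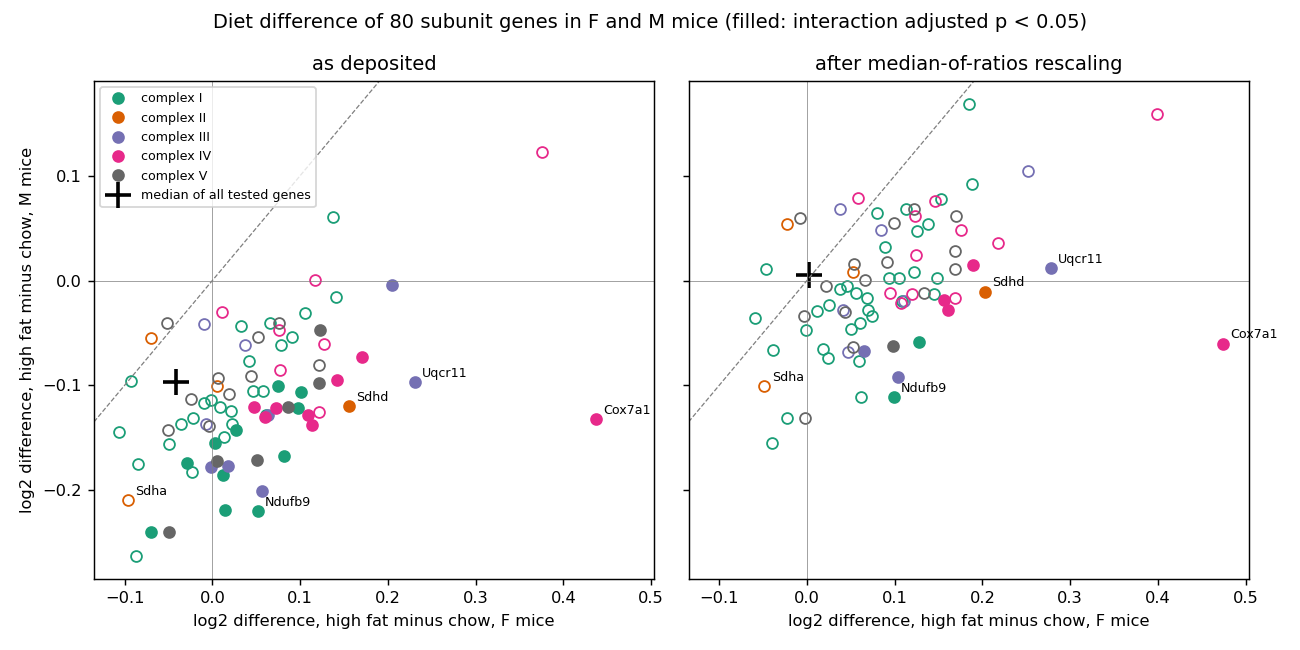
Each point is 1 of 80 subunit genes (all tested but Atp5g2), the horizontal axis its log2 diet difference in F mice and the vertical axis that in M mice, as deposited and after rescaling, with filled points for an interaction at adjusted p below 0.05. Nearly all points lie below the line of equal response, 79 of the 81 tested as deposited and 75 after rescaling.

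In complex I, the NADH dehydrogenase, the clearest diet difference was that of Ndufb11, an X-linked accessory subunit of the membrane arm. Its lowest, median and highest values were 18.0, 24.1 and 29.9 in F on chow, 17.6, 22.1 and 36.4 in F on high fat, 19.6, 27.1 and 31.9 in M on chow, and 15.7, 22.7 and 33.6 in M on high fat. The ranges overlap, and M mice on chow had the highest median. On high fat Ndufb11 fell by 0.15 ± 0.03 on the log2 scale (SE, adjusted p = 1.8e-07), by 0.24 ± 0.04 in M, and its difference after rescaling was −0.08 (adjusted p = 0.0019). Ndufb6 and Ndufc2, further membrane-arm subunits, differed by −0.13 each (adjusted p = 3.3e-05 and 4.6e-05), and Ndufa9, which sits where the arms of the complex meet, by −0.10 (adjusted p = 0.00018). After rescaling these 3 stood at −0.05, −0.05 and −0.02 and none was called. Ndufa8 was the 1 member of complex I that was higher on high fat, by 0.10 ± 0.03 (adjusted p = 0.0024). It is named because it was the exception, after its value was seen.

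As deposited, the smallest p for sex in complex I belonged to Ndufa1, Ndufs6 and Ndufa13, which were higher in M, and to Ndufa7, which was lower. After rescaling, Ndufb8, Ndufb7 and Ndufb10 had larger differences than the first 3 of these, at −0.16, −0.15 and −0.13 (adjusted p = 2.1e-07, 1.6e-07 and 7.9e-05), and are named after their values were seen. Ndufa1, a small X-linked subunit needed for assembly, had medians of 8.38 and 8.12 in F on chow and high fat and of 10.1 and 9.07 in M. That is a log2 difference of 0.19 ± 0.03 (adjusted p = 3.1e-09), and of 0.11 after rescaling (adjusted p = 0.00017). Ndufs6 and Ndufa13 differed by 0.18 each (adjusted p = 2.8e-08 and 1e-07), and by 0.09 each after rescaling (adjusted p = 0.001 and 0.0018). Ndufa7, an accessory subunit, ran from 7.19 to 13.8 in F on chow and from 5.58 to 12.7 in M on chow, with medians of 10.4 and 9.26, and on high fat its medians were 10.2 and 8.83. It fell by 0.18 ± 0.03 from F to M (adjusted p = 1.3e-06) and by 0.26 after rescaling (adjusted p = 7.2e-14), and the call held under both scalings. As deposited most called members of complex I were higher in M, while after rescaling most were lower, as Ndufa7 was.

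The interaction was clearest in Ndufb9 and Ndufa3. Ndufb9 had a median of 30.8 in F mice on either diet, of 36.0 in M on chow and of 30.8 in M on high fat, so the M mice on chow alone stood apart by median, although their range of 24.1 to 46.1 lay within that of M on high fat, 20.0 to 50.1. The interaction was −0.27 ± 0.06 (adjusted p = 0.003), and −0.28 and −0.27 in G11L1 and G11L2 mice. Ndufa3, a single-span membrane subunit, had an interaction of −0.25 ± 0.06 (adjusted p = 0.0026). Both remained called after rescaling, at −0.21 and −0.19 (adjusted p = 0.012 and 0.016).

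In complex II, which links the citric acid cycle to the chain, the 4 subunits did not behave alike. Sdha, the flavoprotein that oxidises succinate, ran from 90.0 to 155 with a median of 118 in F on chow, 84.6 to 135 with a median of 112 in F on high fat, 97.9 to 175 with a median of 137 in M on chow, and 82.6 to 139 with a median of 118 in M on high fat. The M chow group was the highest of 4 overlapping groups. Sdha fell by 0.15 ± 0.03 on high fat (adjusted p = 2.5e-07) and was 0.14 ± 0.03 higher in M (adjusted p = 2e-06). After rescaling these were −0.08 (adjusted p = 0.0019) and 0.05 (adjusted p = 0.038). Sdhb, the iron-sulfur subunit, was 0.09 ± 0.03 higher in M (adjusted p = 0.0067) but stood at 0.01 after rescaling (adjusted p = 0.88), and its diet difference was −0.06 (adjusted p = 0.084). Its interaction, unlike that of most members, was above 0, at 0.02 (adjusted p = 0.91) and 0.08 after rescaling (adjusted p = 0.47), and was not called.

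Sdhd, a heme-binding membrane anchor, was the member with the smallest interaction p. In F mice its lowest, median and highest values were 29.2, 39.5 and 53.6 on chow and 30.2, 43.8 and 58.4 on high fat. In M mice they were 30.7, 42.7 and 51.5 on chow and 27.8, 38.9 and 65.3 on high fat. The median was thus higher on high fat in F and lower in M, with overlapping ranges. The diet difference was 0.16 ± 0.04 in F (adjusted p = 0.0015) and −0.12 ± 0.04 in M (adjusted p = 0.012), and the interaction −0.28 ± 0.06 (adjusted p = 0.00074), −0.21 after rescaling (adjusted p = 0.003). In G11L1 and G11L2 mice alone the Sdhd interaction was −0.28 and −0.27. Neither its sex difference (−0.04, adjusted p = 0.17) nor its diet difference (0.02, adjusted p = 0.62) was called over all mice as deposited, but both were after rescaling, at −0.13 (adjusted p = 8.4e-07) and 0.10 (adjusted p = 0.0006). Sdhc, the other anchor, had an interaction of −0.11 (adjusted p = 0.16), a diet difference of −0.05 (adjusted p = 0.085) and a sex difference of −0.03 (adjusted p = 0.26), which after rescaling was −0.12 (adjusted p = 5.5e-08).

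In complex III, the cytochrome bc1 complex, Uqcr10 and Uqcr11, its smallest subunits, were higher on high fat in F mice. Uqcr10 had medians of 13.6 and 15.3 in F on chow and high fat, with ranges of 10.5 to 19.8 and 10.3 to 25.8, and of 16.8 and 16.9 in M. F mice on chow were therefore the low group. The gene rose by 0.10 ± 0.03 on high fat over all mice (adjusted p = 0.004), and by 0.21 ± 0.04 in F (adjusted p = 8.6e-05), and was 0.20 ± 0.03 higher in M (adjusted p = 6e-09). Rescaled, its diet and sex differences were 0.18 and 0.11 (adjusted p = 3.5e-08 and 0.00024).

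Uqcr11 had lowest, median and highest values of 13.2, 18.8 and 25.6 in F on chow, 14.5, 20.8 and 40.0 in F on high fat, 15.4, 22.2 and 31.2 in M on chow, and 13.1, 20.9 and 31.6 in M on high fat. Again F on chow had the lowest median and all groups overlapped. Its interaction was −0.33 ± 0.07 (adjusted p = 0.0017), −0.27 after rescaling (adjusted p = 0.012), with a rise of 0.23 ± 0.05 in F (adjusted p = 0.00019) and a difference of −0.10 ± 0.05 in M (adjusted p = 0.12). Within G11L1 and G11L2 it was −0.37 and −0.30. Uqcrh, the hinge protein that helps dock cytochrome c1, had an interaction of −0.26 ± 0.06 (adjusted p = 0.0011), −0.20 after rescaling (adjusted p = 0.0051). Its diet difference of −0.07 (adjusted p = 0.023) became 0.01 after rescaling (adjusted p = 0.85).

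Of the other subunits of complex III, Cyc1, cytochrome c1 itself, was 0.14 ± 0.03 higher in M (adjusted p = 8.6e-06) and 0.05 after rescaling (adjusted p = 0.047). Uqcrc1 and Uqcrc2 are its core proteins, and Uqcrfs1 is the Rieske iron-sulfur protein. Uqcrc2 and Uqcrfs1 fell by 0.09 and 0.08 on high fat (adjusted p = 0.00096 and 0.0069) but stood at −0.01 and 0.00 after rescaling (adjusted p = 0.65 and 0.96). Both were called in the interaction, at −0.18 and −0.19 (adjusted p = 0.012 and 0.010), and Uqcrfs1 also after rescaling, at −0.13 (adjusted p = 0.048). Uqcrc1 was 0.09 higher in M (adjusted p = 0.025) and 0.00 after rescaling (adjusted p = 0.98).

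In complex IV, cytochrome c oxidase, the members with the smallest p for sex were Ndufa4 and Cox7a2. Ndufa4 was first described as a complex I subunit and is now placed with complex IV. Its lowest, median and highest values were 29.2, 36.5 and 47.5 in F on chow, 27.4, 36.3 and 56.1 in F on high fat, 32.1, 46.7 and 63.0 in M on chow, and 30.4, 42.4 and 63.4 in M on high fat. Both M groups had higher medians than both F groups, with overlap. Ndufa4 was 1.20-fold higher in M (log2 0.26 ± 0.03, adjusted p = 2.3e-16), and 0.18 after rescaling (adjusted p = 6.3e-11). Cox7a2, the widely used form of subunit VIIa, had medians of 15.6 and 16.4 in F on chow and high fat and of 20.1 and 18.2 in M, a log2 difference of 0.25 ± 0.03 (adjusted p = 4.1e-15), 0.17 after rescaling. Cox7a2l, which links complexes III and IV into supercomplexes, and Cox5a, which binds near the matrix face, were 0.19 and 0.15 higher in M (adjusted p = 2e-11 and 7.2e-07), and 0.11 and 0.06 after rescaling (adjusted p = 2e-05 and 0.013).

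None of the 4 members of complex IV with the smallest diet p was called over both sexes as deposited. Cox7a1 stood at 0.15 (adjusted p = 0.054), Cox8a at 0.05 (adjusted p = 0.21), Cox7a2l at −0.04 (adjusted p = 0.25) and Ndufa4 at −0.04 (adjusted p = 0.27). Cox8a, a small ubiquitous subunit, and Cox7a1 were called higher after rescaling, by 0.13 and 0.21 (adjusted p = 0.00018 and 0.011).

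Cox4i1, the largest nuclear subunit and the one through which ATP regulates the enzyme, had medians of 51.3 and 54.4 in F on chow and high fat and of 58.3 and 53.0 in M. Its ranges overlapped, from 39.1 to 63.8 and 38.7 to 92.7 in F, and from 44.7 to 71.3 and 34.8 to 76.1 in M. The diet difference was 0.11 ± 0.04 in F (adjusted p = 0.018) and −0.14 ± 0.04 in M (adjusted p = 0.0025), and the interaction −0.25 ± 0.06 (adjusted p = 0.0015), −0.19 after rescaling (adjusted p = 0.0059). In G11L1 and G11L2 mice it was −0.31 and −0.20.

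Cox7a1, the heart and muscle form of subunit VIIa, had the largest interaction of all called members. It is a low gene in liver, at 0.304 per kb. Its lowest, median and highest values were 0.0182, 0.131 and 0.368 in F on chow, 0.0714, 0.218 and 0.565 in F on high fat, 0.0317, 0.142 and 0.297 in M on chow, and 0.0263, 0.113 and 0.350 in M on high fat. F mice on high fat had the highest median, and all 4 groups overlapped. Cox7a1 rose by 0.44 ± 0.10 on high fat in F (adjusted p = 0.00018), against −0.13 ± 0.10 in M (adjusted p = 0.27), with an interaction of −0.57 ± 0.14 (adjusted p = 0.0043), −0.53 after rescaling (adjusted p = 0.012). In G11L1 and G11L2 mice it was −0.51 and −0.66. Averaged over both diets, Cox7a1 was lower in M by a log2 difference of −0.27 (adjusted p = 0.00041), and −0.33 after rescaling (adjusted p = 1.8e-05). In size this average was as large as or larger than that of Ndufa4. By median, Cox7a1 was lower in M on high fat (0.218 in F and 0.113 in M) but not on chow (0.131 and 0.142). Because its values are near the pseudocount of 0.0629, these log2 differences understate the change.

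Skeletal muscle transcripts were set beside the muscle-type paralogs. The summed value of 8 muscle markers had a median of 0.110 in F on chow, 0.0910 in F on high fat, 0.0890 in M on chow and 0.0838 in M on high fat, with highest values of 29.1, 20.0, 13.3 and 3.01. The mouse with the highest sum also had the highest Cox6a2 value of all 192, 0.269. Its Cox7a1 value of 0.299 was exceeded in 16 mice, and its Cox8b value of 0.149 in 3. Cox8b was listed at 0 in 118 mice and Cox4i2, the lung and hypoxia form of subunit IV, in 58. Of 4 muscle markers that passed the filter, 0 were higher and 1 lower on high fat. Of 2 adipose markers that passed it, 2 were higher on high fat and 0 lower. The part of muscle or adipose transcripts in the values of these paralogs was not tested.

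In complex V, the ATP synthase, Atp5f1, the peripheral stalk subunit b, had the clearest diet difference. Its lowest, median and highest values were 45.5, 60.0 and 76.3 in F on chow, 42.9, 57.7 and 76.5 in F on high fat, 50.1, 67.0 and 89.5 in M on chow, and 39.1, 57.4 and 71.8 in M on high fat. The M chow group was again the highest by median. Atp5f1 fell by 0.14 ± 0.03 on high fat (adjusted p = 4.9e-07), and its difference after rescaling was −0.07 (adjusted p = 0.0052). In M mice the fall was 0.24 ± 0.04, and the interaction was −0.19 ± 0.05 (adjusted p = 0.0098), −0.13 after rescaling (adjusted p = 0.053). Atp5b, the catalytic beta subunit, Atp5h, another stalk subunit, and Atp5c1, the rotating gamma subunit, fell by 0.10, 0.08 and 0.07 (adjusted p = 0.00076, 0.0054 and 0.007). After rescaling they stood at −0.02, 0.00 and 0.01 and none was called.

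Atp5o, the protein that ties the stalk to the catalytic head, had an interaction of −0.22 ± 0.06 (adjusted p = 0.0049), −0.16 after rescaling (adjusted p = 0.027). Among the sex differences of complex V, Atp5l, a membrane subunit, was 0.17 ± 0.03 higher in M (adjusted p = 2.4e-06) and Atp5a1 0.14 ± 0.03 (adjusted p = 2.8e-06), and both remained called after rescaling at 0.09 and 0.05 (adjusted p = 0.0094 and 0.033). Atp5c1 and Atp5j2 were 0.09 and 0.11 higher in M (adjusted p = 0.00071 and 0.0012), and stood at 0.00 and 0.02 after rescaling (adjusted p = 0.97 and 0.47).

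The generation label gave no called member, 0 higher and 0 lower of 81, by limma, with 13 at an unadjusted p below 0.05. Of all genes 0.397% were called higher and 0.541% lower in G11L2. The counts called were 2 with median-of-ratios rescaling, 1 with quantile normalization and 2 with array weights.

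Ratios of paralogs within a mouse do not depend on how the mouse is scaled, apart from the pseudocount. Of 9 ratios considered, 6 had both genes above the filter, and sex and diet were tested for each by permuting labels within strata (12 tests, two-sided, 100000 resamples, Benjamini-Hochberg adjusted). The log2 ratio of Cox7a1 to Cox7a2 averaged −6.30 ± 0.54 (SD, n = 50) in F on chow, −5.93 ± 0.53 (n = 48) in F on high fat, −6.63 ± 0.43 (n = 48) in M on chow and −6.64 ± 0.47 (n = 46) in M on high fat. It was lower in M over both diets (difference −0.52, permutation adjusted p = 6e-05, from a p of 1e-05 that is the smallest these resamples can give). Taken within G11L1 and G11L2, the difference was −0.39 and −0.65. Its diet difference was 0.18 (permutation adjusted p = 0.039), and 0.17 and 0.19 in the generations, neither of them called. On chow, Cox7a2 had a higher median in M and Cox7a1 did not have a lower one, as given above. The ratio alone therefore does not show less Cox7a1 in M on chow.

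Atp5g1 and Atp5g3 encode the same mature subunit c, the rotor ring protein, behind different import signals. Their log2 ratio averaged −1.18 ± 0.15 and −1.18 ± 0.18 in F on chow and high fat and −1.30 ± 0.22 and −1.33 ± 0.18 in M, a sex difference of −0.13 (permutation adjusted p = 6e-05) with no diet difference called (−0.02, permutation adjusted p = 0.65). Ndufa4l2, a hypoxia-induced paralog, was lower relative to Ndufa4 in M, by a log2 difference of −0.21 (permutation adjusted p = 0.030). Within G11L1 and G11L2 mice the difference was −0.30 and −0.11. Ndufa4 itself was higher in M, as given above, and Ndufa4l2 is a low gene, so the ratio alone does not show less Ndufa4l2 in M. Cox7a2l was lower relative to Cox7a2 in M by −0.06 (permutation adjusted p = 0.051, not called). Cox6b2, the testis form of subunit VIb, showed no called difference relative to Cox6b1 (sex −0.32, diet 0.23, permutation adjusted p = 0.27 and 0.41). The ratio of Atp5g2 to Atp5g3 differed by −0.95 between diets (permutation adjusted p = 0.090), with an SD of at least 3.15 in each group.

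**Figure D4:**
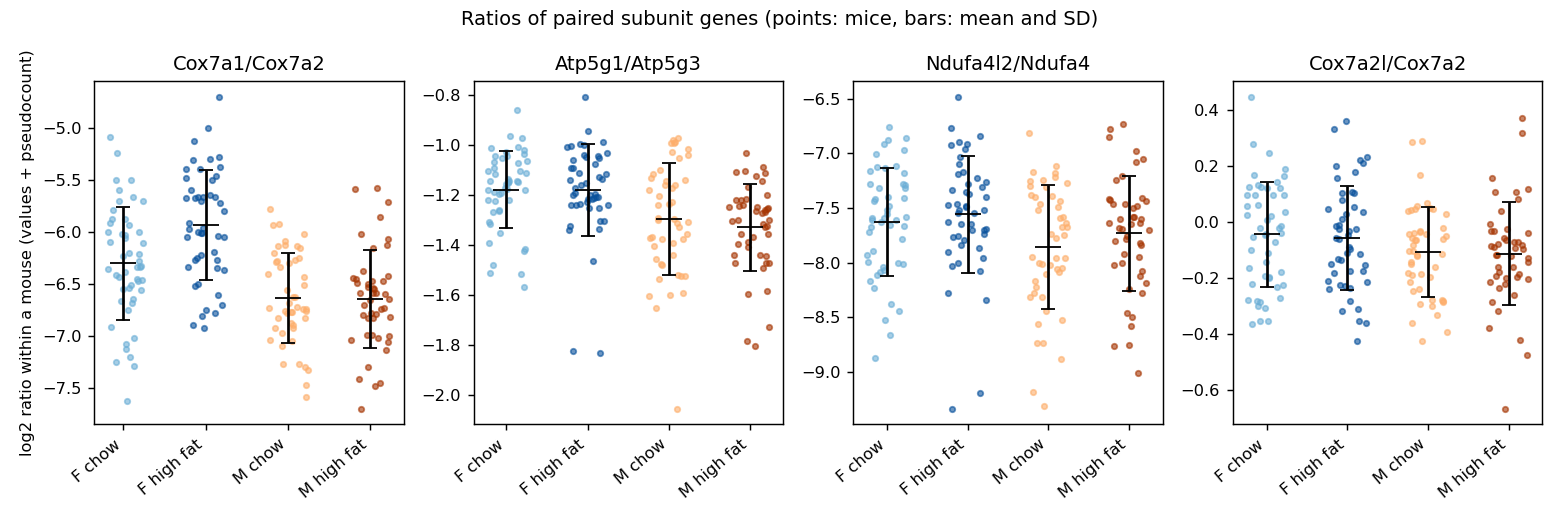
Each point is the log2 ratio of 2 subunit genes in 1 mouse, by group, and bars give mean and SD. Cox7a1/Cox7a2 is highest in F mice on high fat (mean −5.93) and lowest in the M groups (−6.63 and −6.64), and the Atp5g1/Atp5g3 means lie at −1.18 in both F groups and at −1.30 and −1.33 in M.

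By median, the members varied less between mice of a group than all genes tested, which were not matched to them in level. The median residual SD was 0.21 on the log2 scale, against 0.33 for all genes tested, and it was smallest for Atp5c1 (0.16), Sdhc (0.17) and Uqcrc2 (0.17). The largest SDs belonged to Atp5g2 (3.28), Cox6b2 (1.55), Ndufb4 (0.54), Cox7c (0.51), Ndufa4l2 (0.49) and Cox7a1 (0.49). Cox6b2, Ndufa4l2 and Cox7a1 are low genes, with group medians of 0.218 or less, and Cox6b2 reached 2.59 in 1 mouse. The other 3 are not low, and their exons share sequence with rows elsewhere in the genome.

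Cox7c (chr13:86044816-86046904, minus strand) encodes a small subunit of complex IV. Its coding sequence of 189 bases is identical to a stretch of the processed copy Gm12338 (chr11:75599763-75599954) and differs at 2 positions from Gm10012 (chr17:25901856-25902227). They are shown because reads of 100 bases can match more than 1 of these loci. The coding strand of GRCm38 is given, with capitals at the 2 positions that differ.
Cox7c: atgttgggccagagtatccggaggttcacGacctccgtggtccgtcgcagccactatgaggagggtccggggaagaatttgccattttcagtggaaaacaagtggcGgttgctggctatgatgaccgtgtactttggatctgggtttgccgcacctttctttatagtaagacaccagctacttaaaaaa
Gm10012: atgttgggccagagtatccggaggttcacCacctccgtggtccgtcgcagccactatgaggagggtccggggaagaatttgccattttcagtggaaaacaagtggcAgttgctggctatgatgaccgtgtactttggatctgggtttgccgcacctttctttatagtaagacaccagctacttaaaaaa
Gm12338 has the letters of Cox7c throughout.

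Ndufb4, an accessory subunit of complex I (chr16:37647170-37654453, minus strand), has a coding sequence that is identical throughout to Ndufb4c (chr15:73809507-73809896). Atp5g2, a further subunit c gene (chr15:102662864-102672352, minus strand), has one that is identical to stretches of Gm10231 (chr17:5816200-5816640) and Gm10175 (chr7:23946646-23947290). The first 200 bases of each, common to gene and copies with 0 mismatches, are these.
Ndufb4: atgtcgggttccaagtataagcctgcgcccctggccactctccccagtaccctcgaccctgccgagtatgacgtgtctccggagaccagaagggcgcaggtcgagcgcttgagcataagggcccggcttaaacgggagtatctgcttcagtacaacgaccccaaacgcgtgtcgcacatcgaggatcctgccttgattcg
Atp5g2: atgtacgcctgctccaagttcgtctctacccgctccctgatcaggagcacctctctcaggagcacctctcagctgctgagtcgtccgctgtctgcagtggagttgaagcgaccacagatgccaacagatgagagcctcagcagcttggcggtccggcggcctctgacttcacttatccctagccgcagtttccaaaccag

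In each case the gene was low in the mice where the copies were high. Atp5g2 was listed at 0 in 64 of 192 mice, all with copies far above 0, and its log2 SD of 3.27 dropped to 0.16 for the sum of gene and copies. The values of Atp5g2 and its copies correlated at r = −0.81 over the 192 mice, which share their normalization. Ndufb4 split into clusters in most mice. In 21 mice with Ndufb4c at 3.13 or less, Ndufb4 lay between 5.35 and 9.95 (median 6.82). In 171 mice with Ndufb4c at 4.28 or more, it lay between 1.48 and 4.96 (median 2.40). Of these 171, M385 and M390 stood between the clusters, with Ndufb4 at 4.60 and 4.96 and Ndufb4c at 4.28 and 4.94. For Cox7c, 37 mice with copies at 2.73 or less had values from 20.1 to 48.7 (median 29.8), and 155 mice with copies at 5.48 or more had values from 7.63 to 24.8 (median 14.6). The SD of the log2 sum was 0.18 for Ndufb4 and 0.23 for Cox7c. The low-copy mice were spread over the groups, 7, 2, 6 and 6 for Ndufb4 and 11, 10, 9 and 7 for Cox7c in the order F chow, F high fat, M chow and M high fat. The deposited value of these genes is therefore uncertain, and how the authors' counting treated reads that match both loci is not given in the sources used here.

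**Figure D5:**
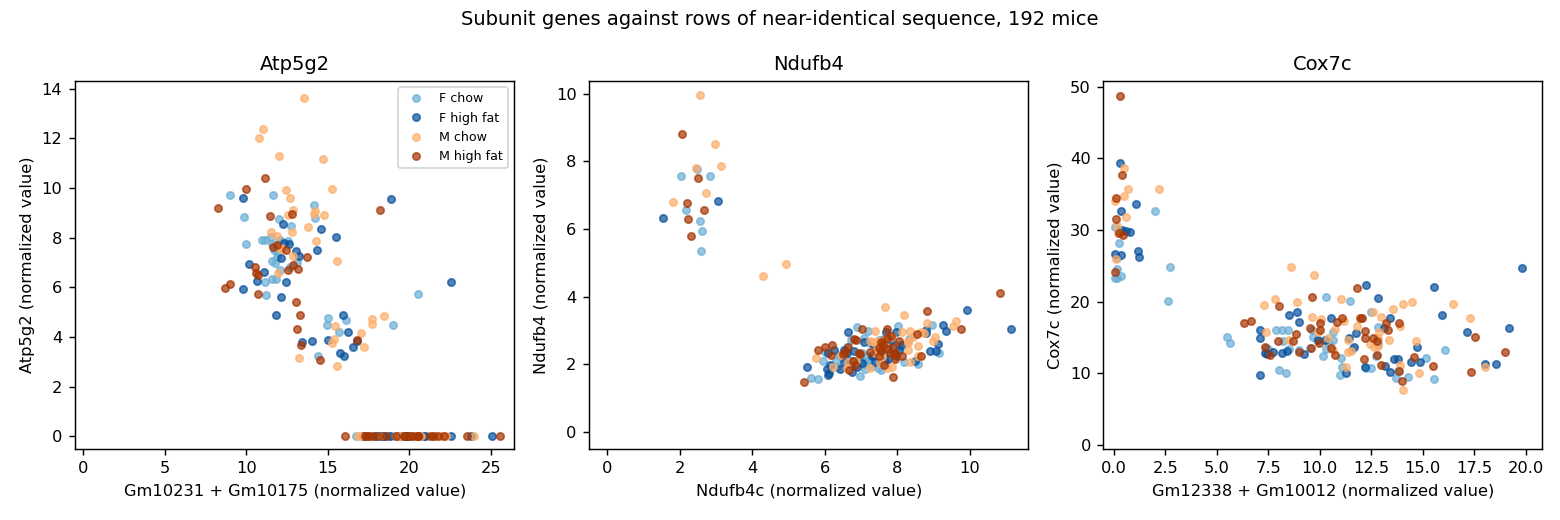
Each point is 1 of 192 mice, the horizontal axis the normalized value of the near-identical rows and the vertical axis that of the subunit gene. Atp5g2 is at 0 in 64 mice with high copies. Ndufb4 and Cox7c have a high cluster of 21 and 37 mice with low copies, and the other 171 and 155 mice lie lower. For Ndufb4, M385 and M390 of these 171 stand between the clusters.

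With the copies added, an alternative chosen after the values were seen, the summed rows behaved more like other members. The sum for Cox7c had an interaction of −0.23 ± 0.07 (adjusted p = 0.017), while Cox7c alone had −0.25 ± 0.15 (adjusted p = 0.30). For Atp5g2 the sum gave −0.17 ± 0.05 (adjusted p = 0.012) against −0.24 ± 0.94 alone (adjusted p = 0.91), and for Ndufb4 −0.13 ± 0.05 (adjusted p = 0.097) against 0.00 ± 0.16 (adjusted p = 0.99). Cox5b, another complex IV subunit, shared sequence with Gm11273, and its log2 SD went from 0.36 to 0.28 for the sum. The other 10 of 14 members with such copies changed by at most 1.04-fold in SD. Adding copies gave 35 interaction calls among the members, of which 33 were the same genes as without them.

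Within groups, members varied together across mice. The median Pearson r between the residuals of 2 members was 0.59 over 3240 pairs as deposited and 0.46 after rescaling, while over 106601901 pairs of all tested genes it was 0.02 and 0.00. All pairs share the libraries and their scaling, so these are descriptions. Complex I with itself had 0.61, complex II 0.64, complex III 0.57, complex V 0.62 and complex IV 0.36, or 0.28 for complex IV after rescaling. Complex IV holds the low genes Cox6b2, Ndufa4l2 and Cox7a1, and Cox7c and Cox5b, which share sequence with copies. As deposited, their median r with the other members was 0.04, 0.07, 0.18, 0.29 and 0.36. The other tested members of complex IV ran from 0.50 (Cox7a2l) to 0.71 (Cox4i1). The part of the low and copy-sharing genes in the r of complex IV was not tested. Atp5g3 and Ndufb11 were closest to the other members, with a median r of 0.72 each, and Cox6b2 (0.04) and Atp5g2 (0.07) the farthest.

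Promoter sequence was read from RefSeq on GRCm38.p6, from 250 bases before to 50 bases after each start. By gene ID or symbol, 66 of the 84 members matched, with 71 windows. The NRF1 motif GCATGCGC occurred on either strand in 10 of those 66 members, that is in 14.1% of their windows against 2.71% of all 32851 windows. CCGGAAG, the core bound by GABPA and other ETS factors, was in 16 members (22.5% of windows against 8.86%), AAGATGGC, bound by YY1, in 9 (12.7% against 2.75%) and AAGGTCA, bound by ESRRA, in 8 (11.3% against 4.72%). These 4 motifs do not contain each other. By complex, the NRF1 motif was in 3 of 32 matched members of I, 1 of 3 of II, 2 of 5 of III, 1 of 13 of IV and 3 of 13 of V. The YY1 motif was in 7 of the 32 of complex I, 2 of the 13 of complex V and 0 of the others.

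Printed below, 5′ to 3′ along the gene's strand, is 1 promoter for each of 3 complexes, those with the most kinds of these motifs, with ties settled by the diet p. Atp5k held the same 3 motifs as Atp5l, and Sdhd in complex II and Cox6a1 in complex IV held 2, as Sdhb and Uqcr11 did. The windows are shown as examples of how the motifs lie. Capitals mark every match on either strand: GCATGCGC for NRF1, CCGGAAG or its complement CTTCCGG for GABPA/ETS, and TGACCTT for ESRRA in reverse. Atp5l lies at chr9:44920693-44920992 (minus strand), Sdhb at chr4:140961021-140961320 (plus strand) and Uqcr11 at chr10:80406772-80407071 (minus strand).
Atp5l: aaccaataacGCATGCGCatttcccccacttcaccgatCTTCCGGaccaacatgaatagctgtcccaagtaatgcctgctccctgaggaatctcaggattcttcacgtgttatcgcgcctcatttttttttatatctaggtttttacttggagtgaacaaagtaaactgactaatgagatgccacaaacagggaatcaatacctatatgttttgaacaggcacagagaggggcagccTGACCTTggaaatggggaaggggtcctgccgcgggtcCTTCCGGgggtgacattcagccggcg
Sdhb: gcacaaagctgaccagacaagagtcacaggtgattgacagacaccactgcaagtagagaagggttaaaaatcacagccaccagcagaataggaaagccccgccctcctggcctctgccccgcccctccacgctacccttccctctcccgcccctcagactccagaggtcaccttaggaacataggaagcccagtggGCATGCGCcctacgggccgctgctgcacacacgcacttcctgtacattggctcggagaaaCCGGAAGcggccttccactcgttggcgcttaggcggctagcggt
Uqcr11: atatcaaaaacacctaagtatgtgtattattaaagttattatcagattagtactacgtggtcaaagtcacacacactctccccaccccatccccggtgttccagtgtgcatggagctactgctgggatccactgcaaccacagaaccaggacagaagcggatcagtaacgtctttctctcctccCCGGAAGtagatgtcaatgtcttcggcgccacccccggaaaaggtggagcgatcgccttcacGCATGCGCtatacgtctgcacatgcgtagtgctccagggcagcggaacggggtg
These matches are letters in a window and no measure of binding.

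Genes that build and feed the complexes were set beside the members. Their counts should be read against the 41.9% of all genes lower and 15% higher on high fat, and after rescaling against 22.9% and 24.9%. On high fat, 8 of 15 complex I assembly factors tested were lower and 0 higher, led by Ndufaf7 (−0.19, adjusted p = 2.8e-09) and Ndufaf1 (−0.16, adjusted p = 9.3e-08). Of 33 assembly factors for complexes II to V, 16 were lower and 2 higher, with Sdhaf2 at −0.15 (adjusted p = 5.7e-08) and Surf1 at −0.14 (adjusted p = 2.1e-07). Electron carriers and coenzyme Q genes had 9 of 19 lower and 2 higher, with Coq8a at −0.33 (adjusted p = 1e-05) and Coq8b at −0.17 (adjusted p = 1.1e-05). Among 16 regulators of mitochondrial biogenesis 12 were lower and 1 higher, including Yy1 (−0.21, adjusted p = 1.6e-13) and Gabpa (−0.22, adjusted p = 7.9e-12), factors named above by their motifs. The citric acid cycle and pyruvate dehydrogenase list had 4 of 16 lower and 5 higher, with Dld at −0.15 (adjusted p = 3.9e-07) and Cs, citrate synthase, at 0.17 (adjusted p = 6.4e-05), and the carriers and uncoupling list 2 of 11 lower and 4 higher, with Ucp2, a mitochondrial carrier, at 0.37 (adjusted p = 3e-07) and Slc25a13, the aspartate-glutamate carrier, at −0.19 (adjusted p = 6.1e-06). After rescaling, the lower and higher counts on high fat were 3 and 1, 3 and 3, 2 and 8, 7 and 1, 1 and 9, and 1 and 8 in these 6 lists in the order given, so that the balance of the electron carriers and coenzyme Q list turned, and the 12 genes named remained called in the same direction. Interaction calls as deposited, all lower, numbered 0, 3, 2, 3, 3 and 3 in the same order, beside 33 of 81 for the subunits. After rescaling they were 0, 0, 0, 1, 1 and 1 lower, beside 11 of 81.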

How the data were processed

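The deposited table holds 21454 genes in 192 columns, 1 per mouse, and per its title the authors scaled this expression signal by upper quartile. Only CASAVA (version 1.8.0) and GRCm38 with its synonym mm10 are named in the submitters' processing notes. Aligner, counter and annotation are not given in the sources used here. For symbols and coordinates, 21022 IDs found an entry in GENCODE M21, an annotation of GRCm38. A gene entered the fits when at least 46 mice were above 0 and its mean reached the pseudocount, which kept 14602. Sequencing depth is unknown, and count models do not suit normalized values, so precision rests on the number of mice. The p-values set group differences against the spread between mice.

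The scale was log2(value + 0.0629), where 0.0629 is 1/100 of the median upper quartile (6.29). Means of the 4 groups were fitted by limma 3.58.1 (R 4.3.3), together with the generation label and a trended variance, with Benjamini-Hochberg adjustment over all tested genes and a call at adjusted p below 0.05. Log2 differences are M minus F, high fat minus chow, or, for the interaction, the diet difference in M minus that in F, each ± SE. They understate changes of low genes. Scripts in Python 3.11.15 tested the ratios by permutation and searched the sequences. Copies are genes over 100 kb away sharing at least 10% of a member's 31-base words. The tests were checked on simulated data.

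Members and lists were chosen with earlier results of these data known. Genes were named by rule: within each complex the 4 smallest p for sex, 4 for diet and 2 for interaction, members of the ratios, the 6 largest and 3 smallest residual SDs, the ends of the levels per kb, and up to 2 genes per companion list. Counts include 1 member that is not reported here. Alternatives were other pseudocounts, filters and scalings, array weights, robust moderation, each generation label alone, no generation term, the mouse number as a replicate block, and fits without certain mice. Adding copies was chosen after seeing the data.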

Additional observations from a re-analysis of the deposited data

Results flagged for a closer look

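For 33 subunit genes the diet difference in M mice and that in F mice differed by the test of the difference itself (limma interaction, M minus F, Benjamini-Hochberg adjusted p below 0.05 over all genes), and all 33 log2 values lie below 0. Of these, 11 remained called after median-of-ratios rescaling, 12 in G11L1 mice alone and 0 in G11L2 mice alone. In complex I they include Ndufb9 (−0.27), Ndufa3 (−0.25), Ndufs7 (−0.23), Ndufb8 (−0.22), Ndufab1 (−0.21), Ndufv1 (−0.20), Ndufa2 (−0.19), Ndufv2 (−0.17), Ndufb11 (−0.17), Ndufb5 (−0.17) and Ndufa9 (−0.15). Complex II has Sdhd (−0.28). Complex III has Uqcr11 (−0.33), Uqcrh (−0.26), Uqcr10 (−0.21), Uqcrfs1 (−0.19), Uqcrb (−0.19) and Uqcrc2 (−0.18). In complex IV the genes are Cox7a1 (−0.57), Cox4i1 (−0.25), Cox8a (−0.24), Cox6b1 (−0.24), Cox6c (−0.24), Cox7a2 (−0.19), Cox7a2l (−0.19) and Ndufa4 (−0.17). Complex V adds Atp5o (−0.22), Atp5mpl (−0.22), Atp5j2 (−0.21), Atp5f1 (−0.19), Atp5h (−0.18) and Atp5g3 (−0.17).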

How the results depend on the processing

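Members called were 46 for sex (higher), 24 for diet (lower), 14 for diet in F (higher), 47 for diet in M (lower), 61 for sex on chow (higher), 9 for sex on high fat (lower), 33 for the interaction (lower) and 0 for generation. Median-of-ratios rescaling gave 12, 4, 37, 8, 20, 28, 11 and 2 in that order, and quantile normalization 10, 0, 51, 2, 17, 30, 14 and 1. In the opposite direction quantile normalization gave 19 lower for sex, 47 higher for diet and 11 higher for diet in M. These balances of the members thus reversed, as those for sex and diet did on rescaling (18 lower, 26 higher). Shares of all genes called under quantile normalization are not given here, so its counts do not show whether the members moved apart from the table. G11L1 mice alone gave 10 for diet, 29 for diet in M, 5 for sex on high fat and 12 for the interaction. G11L2 mice alone gave 11 for sex, 3 for diet in F, 25 for diet in M, 20 for sex on chow and 0 for the interaction. Generation calls were 2 with array weights and 1 without the 10 least alike mice. Paralog tests called fell from 4 to 2 with a smaller pseudocount, in G11L2 mice and with medians. Median member r went from 0.59 to 0.46 on rescaling. Among 50 named results, 14 turned sign under some scaling: for sex, Uqcrc1 (−0.00124) and Atp5c1 (−0.000887) on rescaling and Atp5a1 (−0.0149) under quantile normalization; for diet, Uqcrh (0.00599) and Atp5c1 (0.00644) on rescaling, and under quantile normalization Ndufa9 (0.0108), Sdhb (0.0670), Sdhc (0.0650), Uqcrc2 (0.0494), Uqcrfs1 (0.0405), Uqcrh (0.0366), Cox7a2l (0.0713), Ndufa4 (0.0874), Atp5b (0.108), Atp5h (0.0257) and Atp5c1 (0.0597). The cause was not tested. Turns of sign were counted only where either fit was called, and other turns were scored as the same. Calls were lost in 30 of the 50 under at least 1 of 16 alternatives, and 11 were scored as the same in all. The mouse number as replicate block changed none of these 50 and gave 33 interaction calls. The 92 pairs sharing a number across sexes correlated at a median residual r of 0.003, over 0.1 in 9, so the numbers were not taken as pairing mice.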
